A study of Mus musculus with 6 samples.

Results

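The tripartite motif (Trim) genes were taken as every gene of the count table whose symbol is Trim followed by a number and at most 1 letter. This gave 42 of 14484 genes. Typical members encode a protein with a RING finger, 1 or more B-box zinc fingers and a coiled coil, followed by a C-terminal part that sorts the family into classes. Libraries came from skin of mice on a C57BL/6-129J background, 3 per genotype. The ATR mD/mD animals were Atr fl/fl, in which a portion of the kinase domain of Atr is removed, and the ATR WT animals were Atr +/+. Every animal of both groups also carried 1 Braf CA allele (Braf CA/+) and Cre. The labels give neither ages nor the promoter that drives Cre. Nothing in them states that each sample is a different animal, so p-values measure only how these 6 samples vary. In the series design the skin is described as nevi, benign lesions of melanocytes.

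Most Trim proteins are ubiquitin ligases: the RING finger binds a ubiquitin-charged E2 enzyme and the C-terminal part chooses the target. Many members are induced by interferon, and several act in antiviral defence. Members with a PRY-SPRY domain at the C terminus, such as those of the rodent Trim30 and Trim34 genes, include relatives of primate TRIM5, which binds incoming retroviral capsids. Other classes work in chromatin (the PHD-bromodomain members), at microtubules and muscle sarcomeres (the COS members), or at membranes.

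Gene counts summed to between 34723600 and 38565590 for ATR mD/mD libraries and to between 39297160 and 46847751 in ATR WT libraries. Keratinocyte markers were high in all 6 libraries, with a mean of 10.26 to 10.56 log2 CPM (counts relative to the TMM-scaled library size) in ATR mD/mD and of 9.98 to 10.67 in ATR WT. The level of 34 hair follicle genes, none of them a Trim gene, was -0.02, 2.12 and 6.98 log2 CPM in ATR mD/mD 1, 2 and 3, against 1.88, 6.69 and 6.92 in ATR WT 1, 2 and 3. Hair level overlapped between the genotypes. Libraries of both sexes were present in each group: Xist was high in ATR mD/mD 1, ATR WT 2 and ATR WT 3, and Y-linked transcripts were high in the other libraries. No member of the family lies on the X chromosome.

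Of the 42 members, 1 fell in ATR mD/mD and 0 rose (adjusted p below 0.05 in the quasi-likelihood test of edgeR), beside 0.0483% of all genes called. That member, Trim12a, lies in a cluster of Trim genes on chromosome 7, and the members with the next smallest p-values, Trim34a and Trim30d, lie in the same cluster. The other members of the cluster in the table, Trim12c and Trim30a, did not pass. The 37 members outside the cluster had log2 fold changes between -0.28 and 0.64, and none of them passed. These 5 cluster genes were singled out with the results of this comparison known, so their values below are a description of the cluster.

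The cluster spans 289.1 kb (mm10, chr7:104218793-104507849) and holds 10 Trim genes in the GENCODE M21 annotation. In order these are Trim6, Trim34a, Trim5, Trim12a, Trim34b, Trim12c, Trim30b, Trim30c, Trim30a and Trim30d. The table lists 5 of them, and the other 5 are not analysed here. Trim34a (chr7:104244457-104262234) lies on the plus strand. Trim12a (chr7:104299894-104315466), Trim12c (chr7:104338754-104353362), Trim30a (chr7:104409025-104465193) and Trim30d (chr7:104470014-104507849) lie on the minus strand.

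The promoter windows of the close relatives are shown because one gene of each pair was low in ATR mD/mD and the other was not. Each RefSeq window (build GRCm38.p6) runs from 250 bases before to 50 bases after the annotated start, 5′ to 3′ on the gene's own strand. Capitals mark the core of the interferon-stimulated response element, TTTC followed by any 2 bases and TTTC, searched on both strands. For Trim30a the window nearest to the GENCODE start is shown.
Trim12a, chr7:104315446-104315745, minus strand: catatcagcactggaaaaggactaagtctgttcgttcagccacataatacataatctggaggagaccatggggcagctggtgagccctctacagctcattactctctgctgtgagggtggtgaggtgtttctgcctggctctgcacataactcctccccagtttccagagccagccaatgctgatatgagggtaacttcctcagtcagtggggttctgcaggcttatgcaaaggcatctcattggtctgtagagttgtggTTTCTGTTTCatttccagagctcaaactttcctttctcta
Trim12c, chr7:104353300-104353599, minus strand: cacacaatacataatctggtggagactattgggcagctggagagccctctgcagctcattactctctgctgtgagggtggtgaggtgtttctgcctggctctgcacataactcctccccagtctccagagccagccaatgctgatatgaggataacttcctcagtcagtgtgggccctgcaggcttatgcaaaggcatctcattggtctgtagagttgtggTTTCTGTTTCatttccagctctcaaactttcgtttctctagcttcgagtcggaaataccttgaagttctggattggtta
Trim30d, chr7:104507800-104508099, minus strand: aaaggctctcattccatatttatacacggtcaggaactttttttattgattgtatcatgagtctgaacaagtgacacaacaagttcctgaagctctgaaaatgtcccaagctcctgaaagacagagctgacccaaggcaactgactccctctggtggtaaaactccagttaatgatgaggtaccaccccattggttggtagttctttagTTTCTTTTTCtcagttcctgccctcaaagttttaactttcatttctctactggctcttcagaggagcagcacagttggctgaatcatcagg
Trim30a, chr7:104465144-104465443, minus strand: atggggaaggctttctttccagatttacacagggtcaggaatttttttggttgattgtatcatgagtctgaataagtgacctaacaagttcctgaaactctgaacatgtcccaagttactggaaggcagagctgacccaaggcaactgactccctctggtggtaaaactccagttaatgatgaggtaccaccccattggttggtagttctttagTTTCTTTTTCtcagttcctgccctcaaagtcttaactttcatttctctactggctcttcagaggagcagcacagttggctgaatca

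The windows of Trim12a and Trim12c matched at 247 of 260 bases aligned without gaps, in an alignment of 340 columns. Both windows held the same element, TTTCTGTTTC, at offsets of 10 (Trim12a) and -29 (Trim12c) bases from the annotated start. Those of Trim30d and Trim30a matched at 277 of 295 aligned bases, and both held TTTCTTTTTC. The window of Trim34a held TTTCAGTTTC. The element was thus present in the reference windows of all 5 measured cluster genes, the low ones and the others alike. The labels do not say which strain each sample carried at the cluster, so the sequence in these mice is not known. The element was found in 9 of the 43 RefSeq windows of 31 Trim genes, and in 3.44% of the 32851 promoter windows of all genes. The 8 Trim genes with it were these 5, Trim2, Trim21 and Trim26. These 5 were singled out and pairs of their windows are close copies, so the shares are not compared. A match of letters is not a bound site.

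Trim12a transcript was close to absent from ATR mD/mD skin. It had 1, 0 and 0 counts in ATR mD/mD 1, 2 and 3, and 373, 393 and 414 counts in ATR WT 1, 2 and 3. The groups did not overlap, and the ATR WT libraries lay close together at 9.27 ± 0.927 CPM (SD, n = 3). The summed level in ATR mD/mD was 0.0997% of that in ATR WT, with an exact 95% counting interval of 0.00252% to 0.557%. Such counting intervals, here and below, cover counting error only and not variation between libraries. The log2 fold change was -9.55 (adjusted p = 0.00629, edgeR). Without ATR WT 2 or ATR WT 3 the adjusted p was 0.0613 or 0.053, with log2 fold changes of -9.56 and -9.61. The mice had a mixed C57BL/6-129J background, the labels do not say which strain each sample carried at the cluster, and the part this had in the counts of Trim12a, Trim34a and Trim30d was not tested.

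Trim34a, an interferon-induced gene, was lower without being absent. It was at 2.002, 2.36 and 1.63 CPM in ATR mD/mD 1, 2 and 3 and at 9.15, 8.85 and 8.13 CPM in ATR WT 1, 2 and 3. Every ATR mD/mD library lay below every ATR WT library, and the summed level was 23.2% of that in ATR WT (counting interval 20.02% to 26.9%). In bulk skin, fewer cells of a type and less RNA per cell cannot be told apart. The log2 fold change was -2.12 (SE 0.229), with an adjusted p of 0.0788 in edgeR's quasi-likelihood test, which misses the threshold.

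Trim30d, at the far end of the cluster, was lower still in proportion. It was at 0.772, 0.406 and 0.286 CPM in ATR mD/mD 1, 2 and 3 and at 3.92, 3.84 and 4.5 CPM in ATR WT 1, 2 and 3. The groups again did not overlap, and the summed level was 11.8% of that in ATR WT (counting interval 8.72% to 15.7%). In edgeR's quasi-likelihood test its log2 fold change of -3.06 (SE 0.412) had an adjusted p of 0.212. With the hair level as a covariate, the adjusted p was 0.0504 for Trim34a and 0.099 for Trim30d, still past no threshold, and 0.00175 for Trim12a (edgeR), the 1 member called, beside 0.069% of all genes.

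The call for Trim34a and Trim30d depended on the tool. DESeq2 called 3 members, Trim12a, Trim34a and Trim30d, beside 0.269% of all genes. edgeR's exact test called the same 3 beside 0.173% of all genes, and limma-voom called Trim12a alone beside 0.0483%. In the authors' deposited table the same 3 members have an FDR under 0.05, with 0.00269 for Trim34a and 5.06e-05 for Trim30d, beside 0.152% of all genes.

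Trim12c, which in mouse is known to promote interferon production, had the highest level per kilobase of exon in the cluster, 10.3 ± 0.75 in ATR mD/mD and 8.94 ± 0.399 in ATR WT (SD, n = 3). It was at 39.3, 35.5 and 41 CPM in ATR mD/mD 1, 2 and 3 and at 35.2, 32.5 and 32.7 CPM in ATR WT 1, 2 and 3. The ATR mD/mD libraries all lay above the ATR WT libraries by a narrow margin, with a log2 fold change of 0.21 (95% interval -0.08 to 0.49, adjusted p = 0.9999, edgeR). Trim30a, known in mouse to restrain NF-kappaB signalling from Toll-like receptors through loss of Tab2 and Tab3, was at 15.3, 12.5 and 10.7 CPM in ATR mD/mD and at 12.5, 16.1 and 17.1 CPM in ATR WT. Its groups overlapped (log2 fold change -0.25, 95% interval -0.74 to 0.25, adjusted p = 0.9999, edgeR). Groups without overlap were found in 5 of the 42 members, beside 4.84% of all genes. Of these, 3 were lower in ATR mD/mD (Trim12a, Trim34a and Trim30d, beside 2.58% of all genes), and 2 were higher (Trim12c and Trim11, beside 2.26%). Immune cell markers were measured beside these genes: 6 of 6 macrophage markers averaged 6.3, 5.81 and 5.9 log2 CPM in ATR mD/mD 1, 2 and 3 and 5.65, 6.23 and 6.25 in ATR WT 1, 2 and 3. The 4 measured of 5 T cell markers averaged 3.53, 3.11 and 2.64 in ATR mD/mD and 3.62, 3.27 and 3.24 in ATR WT. The means of both sets overlapped between the genotypes. Among their genes, Cd4, named after its values were seen, was without overlap, at 4.29, 3.96 and 4.06 CPM in ATR mD/mD and 6.15, 9.08 and 10.6 CPM in ATR WT (log2 fold change -1.07, edgeR, adjusted p = 0.9999, unadjusted p = 0.0046). The 7 melanocyte markers averaged 3.63, 3.86 and 6.28 log2 CPM in ATR mD/mD and 4.31, 6.45 and 5.87 in ATR WT. All 7 were lower in ATR mD/mD by sign (median log2 fold change -0.58). None passed (edgeR), and 1 had an unadjusted p under 0.05, beside 1.66% of all genes. That gene, Sox10, was the 1 without overlap. Of the 7, 5 were called for hair level with positive slopes, beside 5.61% of all genes. The part of these cell types in the Trim values was not tested.

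**Figure D1:**
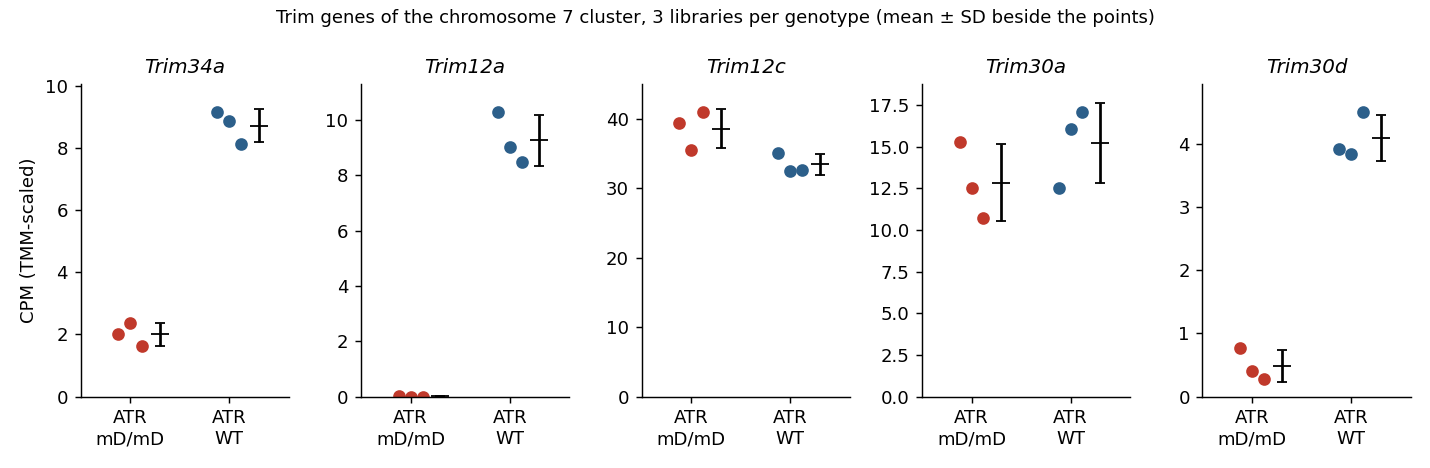
TMM-scaled CPM of the 5 measured cluster genes in order along chromosome 7, each point 1 library, with the mean and SD of 3 libraries beside the points. Trim34a, Trim12a and Trim30d were lower in every ATR mD/mD library than in any ATR WT library, Trim12c was slightly higher in every one, and Trim30a overlapped.

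Within a library, the share of a close pair can be read without scaling. Trim12a made up 0.0726%, 0% and 0% of the summed Trim12a and Trim12c counts in ATR mD/mD 1, 2 and 3, and 22.6%, 21.8% and 20.6% in ATR WT 1, 2 and 3. The counts of 0 allow shares of up to 0.214% for the library ATR mD/mD 2 and 0.209% for ATR mD/mD 3, as 3 counts of the total. The pair therefore held a nearly fixed ratio in the ATR WT libraries. Trim30d made up 4.81%, 3.14% and 2.6% of the summed Trim30d and Trim30a counts in ATR mD/mD, and 23.9%, 19.3% and 20.9% in ATR WT. The exact 95% binomial intervals reached at most 6.93% in ATR mD/mD and began at 16.7% or above in ATR WT, and they cover counting error only.

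Close copies limit how these counts can be read, since reads that aligned to more than 1 place were not assigned to genes in the table. Of all distinct 50-base stretches in annotated Trim34a transcripts, 59.7% also occur in another gene, with 39.8% in Trim34b and 20.2% in Gm47248. For Trim12c the share was 33.7%, mainly with Trim5 (24.2%), and 6.38% of its stretches occur in Trim12a. Trim12a, Trim30d and Trim30a had more of their own sequence, with shares of 10.5%, 7.49% and 5.98%. Most of the length of Trim12a and Trim30d can therefore be told from their relatives by 50 bases, whereas Trim34a counts may rest on a smaller stretch. Genome positions were not checked, so stretches that overlapping genes share at 1 place count as shared too. The read length is not given in the sources used here.

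**Figure D2:**
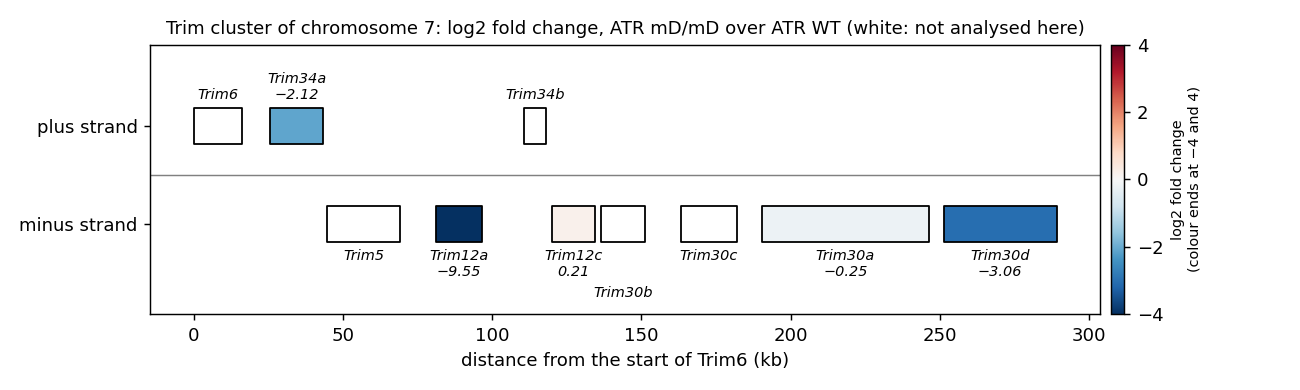
Map of the 10 annotated Trim genes of the cluster, drawn to scale as the distance in kb from the start of Trim6, with the strand on the vertical axis and the log2 fold change (ATR mD/mD over ATR WT) as colour and number. The genes with log2 fold changes of -2.12, -9.55 and -3.06 do not form 1 unbroken run: Trim12c and Trim30a, at 0.21 and -0.25, lie between Trim12a and Trim30d, and between Trim34a and Trim12a lies only Trim5, not analysed here.

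The nearest measured genes on both sides lay 663.3 to 1653.3 kb from the cluster. Of 5 on each side, 0 passed (edgeR quasi-likelihood), beside 0.0483% of all genes. None had an unadjusted p under 0.05, beside 1.66% of all genes. In so few genes, counts of 0 are near these shares. The closest, Olfr613, an olfactory receptor gene 663.3 kb before the cluster, had a log2 fold change of 0.07 (SE 0.168). On the other side Fam160a2, 863.4 kb beyond, had 0.07 (SE 0.134). Trim21, the cytosolic receptor for antibody-coated particles, Trim68 and Trim3 are among these flanking genes, at 0.14 (SE 0.186) for Trim21, 0.23 (SE 0.159) for Trim68 and 0.11 (SE 0.123) for Trim3 on the log2 scale. The largest value was that of Hpx, a plasma haem-binding protein, with 0.94 (SE 0.723, edgeR, unadjusted p = 0.237).

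By the rule of the highest Pearson correlation with Trim12a over the 6 libraries (log2 CPM), the genes most like it were Skint3, Skint9, Skint4, Rnaset2b and Ecel1, with r between 0.99 and 0.999. These lie on other chromosomes, 4, 17 and 1. Trim34a came sixth among all genes with r = 0.988, and Trim30d had r = 0.98. Trim30a and Trim12c had r = 0.541 and -0.807. All these values mainly restate the difference between the genotypes.

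The 37 members outside the cluster were described next, by class. None was called by edgeR's quasi-likelihood test, DESeq2, limma-voom or the exact test, and 0 had an unadjusted p under 0.05, beside 1.66% of all genes. Log2 fold changes were positive in 20 of them and negative in 17, and their median of 0.01 stood beside 0.007 over all genes. The 95% interval lay wholly between -1 and 1 for 29 of the 37, so for these a 2-fold difference in either direction is outside the interval. The exceptions were Trim36, Trim7, Trim55, Trim59, Trim72, Trim56, Trim63 and Trim54.

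**Figure D3:**
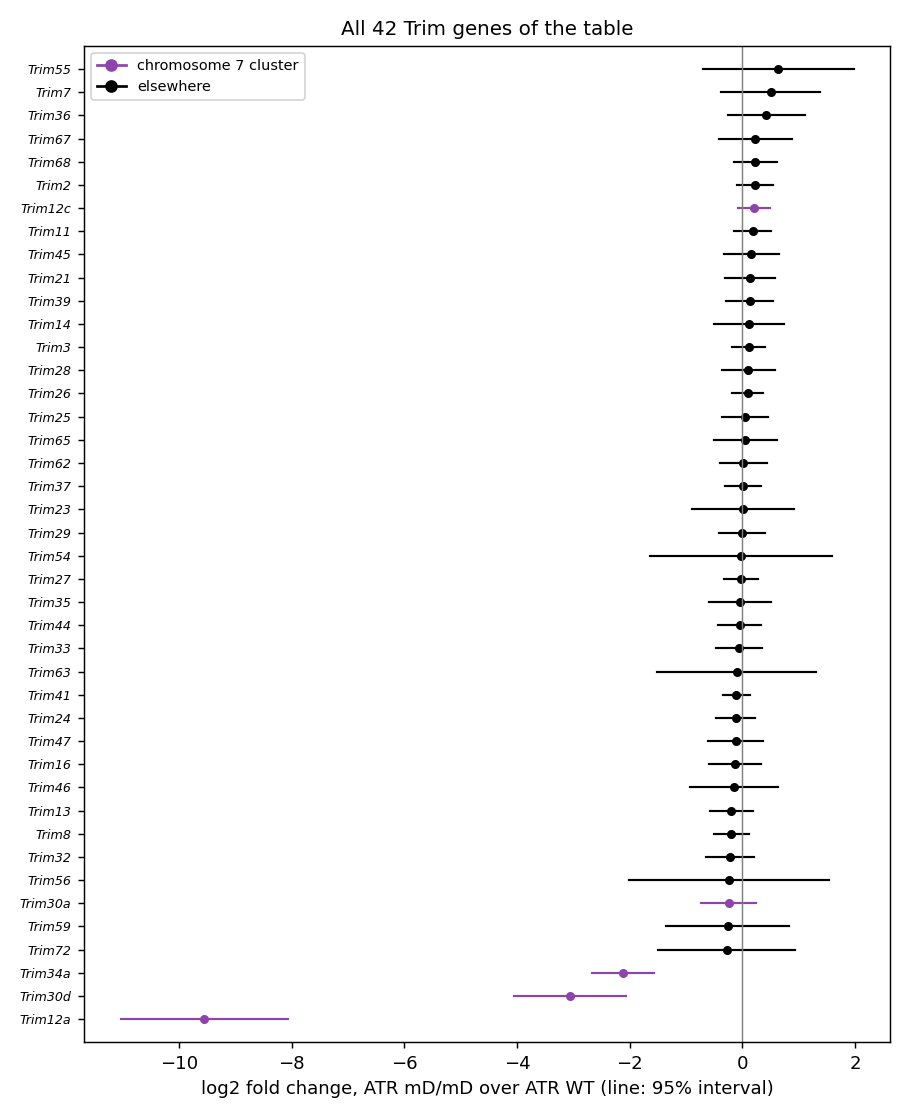
Log2 fold change (ATR mD/mD over ATR WT) of all 42 members with its 95% interval from the edgeR fit, cluster genes in purple. Trim12a, Trim30d and Trim34a stand at -9.55, -3.06 and -2.12, and the other members lie between -0.28 and 0.64.

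The PRY-SPRY class was the largest, with 21 members, 11 positive and 10 negative, and a median of 0.02. Classes were assigned by gene symbol and protein domains were not checked, so the placing of Trim12a in this class is not verified here. Among the genes so placed, the only call in edgeR's quasi-likelihood test was Trim12a. Trim11, one of the ubiquitin ligases of the class, was at 41.7, 41.9 and 52 CPM in ATR mD/mD and at 41.6, 40.4 and 37.4 CPM in ATR WT, groups that just fail to overlap (log2 fold change 0.18, 95% interval -0.14 to 0.51). Trim68, known in human cells as a coactivator of the androgen receptor, was at 30.1 ± 3.11 CPM in ATR mD/mD and 25.7 ± 3.67 CPM in ATR WT (SD, n = 3). Trim7, which binds glycogenin, was at 28.4, 31.3 and 12.3 CPM in ATR mD/mD and at 21.3, 15.9 and 13.8 CPM in ATR WT, with ATR mD/mD 3 below all ATR WT libraries. Trim25, the ligase that activates the RNA sensor RIG-I, was at 63.6 ± 11.9 CPM in ATR mD/mD and 61.3 ± 6.62 CPM in ATR WT (log2 fold change 0.05, 95% interval -0.35 to 0.46).

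The chromatin class of Trim24, Trim28 and Trim33 had log2 fold changes of -0.12, 0.11 and -0.06. Trim28, the corepressor that KRAB zinc finger proteins recruit to silence retroelements, was at 174, 170.4 and 255 CPM in ATR mD/mD and at 175, 206.5 and 175 CPM in ATR WT. The groups overlapped, and ATR mD/mD 3 was the highest library. Without that library the log2 fold change was -0.11.

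The NHL class, whose C-terminal propeller can bind RNA or protein, had Trim2, Trim3 and Trim32. Trim2, a ligase known from neurons for its action on neurofilament light chain, was at 130.2, 133.5 and 113.7 CPM in ATR mD/mD and at 118, 98.6 and 107 CPM in ATR WT. It had the smallest unadjusted p outside the cluster, 0.147 (log2 fold change 0.22, 95% interval -0.10 to 0.54, edgeR). Trim32, mutated in a human limb-girdle muscular dystrophy, was at 16.3 ± 1.2 CPM in ATR mD/mD and 19 ± 3.33 CPM in ATR WT (SD, n = 3; log2 fold change -0.22, SE 0.175). Neither gene passed.

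Among members without a C-terminal domain, Trim8, a regulator of cytokine signalling, was at 59.8, 69 and 54.4 CPM in ATR mD/mD and at 75.4, 66.7 and 68.4 CPM in ATR WT, with overlap (log2 fold change -0.20, 95% interval -0.51 to 0.11). Trim56, known for antiviral activity, was the most uneven member outside the cluster. It was at 1.77, 2.46 and 1.43 CPM in ATR mD/mD and at 0.524, 1.43 and 4.71 CPM in ATR WT, so ATR WT 1 and ATR WT 3 held both the lowest and the highest value. The endoplasmic reticulum ligase Trim13 was at 15.2 ± 1.03 CPM in ATR mD/mD and 17.3 ± 2.46 CPM in ATR WT (SD, n = 3). Trim36, a microtubule-associated member, was at 7.26, 5.87 and 3.72 CPM in ATR mD/mD and at 4.16, 4.16 and 4.2 CPM in ATR WT, and the spread was almost all within ATR mD/mD.

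Levels of different members were compared as CPM per kilobase of annotated exon. Trim29, a RING-less member that is abundant in stratified epithelia, was far above the rest, at 207 ± 18.2 in ATR mD/mD and 207 ± 24.4 in ATR WT (SD, n = 3). Its log2 fold change was 0.002 (95% interval -0.41 to 0.41), and leaving out single libraries moved it between -0.075 and 0.082. Trim28 followed at 48.1 ± 11.5 in ATR mD/mD and 44.6 ± 4.36 in ATR WT. Next came Trim54, at 37.7 ± 16.2 in ATR mD/mD and 38.2 ± 34.5 in ATR WT. Trim72 was at 17.4 ± 7.67 in ATR mD/mD and 21.1 ± 12.8 in ATR WT, and Trim41, a PRY-SPRY ligase, was at 18.5 ± 0.825 in ATR mD/mD and 19.9 ± 0.591 in ATR WT. Trim8 was close behind, at 16.5 ± 1.98 in ATR mD/mD and 18.9 ± 1.24 in ATR WT, and Trim54, Trim72, Trim41 and Trim8 do not differ in order beyond their spread. At the low end, Trim67 was at 0.195 ± 0.0419 in ATR mD/mD and 0.166 ± 0.0131 in ATR WT. Among the cluster genes, Trim34a had 0.771 ± 0.141 in ATR mD/mD and 3.36 ± 0.204 in ATR WT. In ATR WT it was level with Trim30a, which had 3.12 ± 0.559 in ATR mD/mD and 3.7 ± 0.585 in ATR WT. Reads aligned to more than 1 place were not counted. Of Trim34a's 50-base stretches 59.7% occur in transcripts of another gene, against 5.98% for Trim30a, with genome positions not checked. The order of Trim34a and Trim30a by this measure is therefore uncertain.

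**Figure D4:**
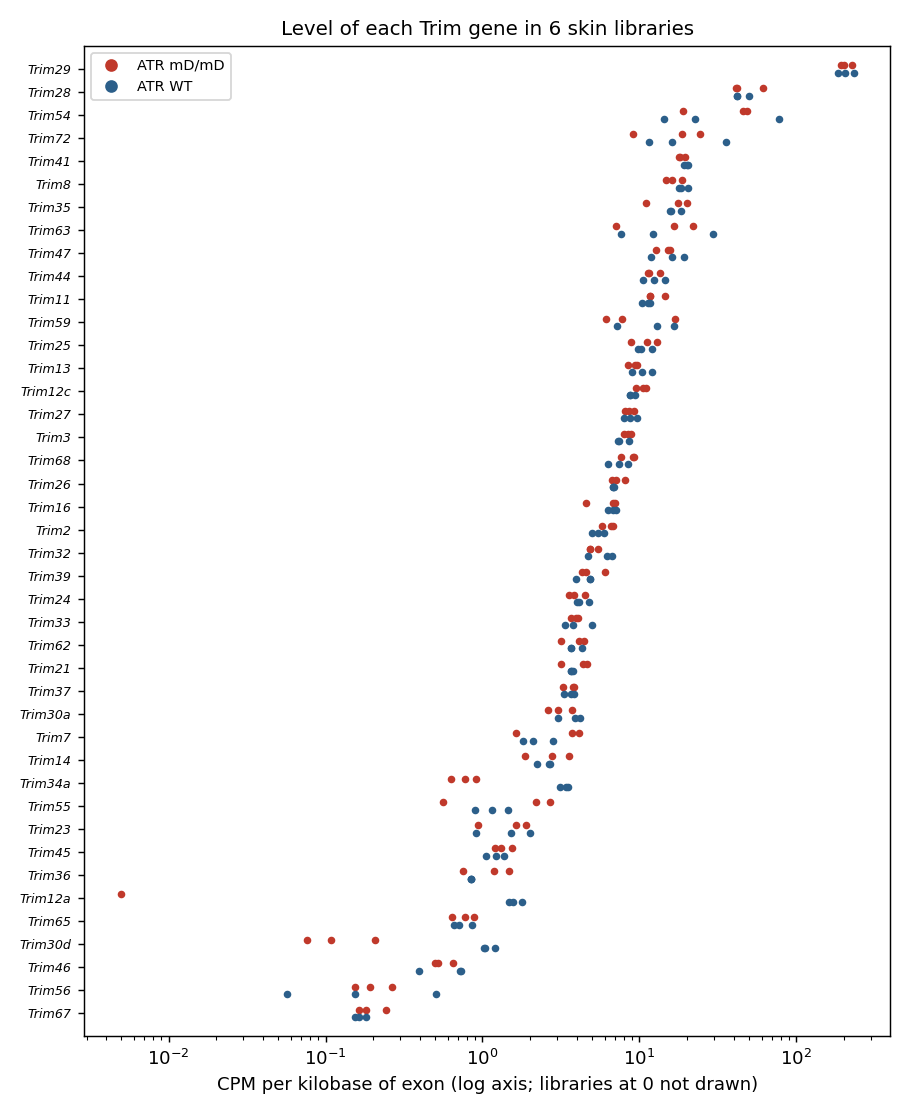
CPM per kilobase of exon for each of the 42 members in 6 libraries, ordered by the mean, on a log axis. Trim29 stands alone at the top near 207, and the ATR mD/mD points of Trim12a, Trim30d and Trim34a lie left of their ATR WT points, with ATR mD/mD 2 and 3 at 0 for Trim12a and not drawn.

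Library-to-library variation of the family was small: the median SD of log2 CPM over the 6 libraries was 0.21 for the members and 0.25 for all genes. Hair level was then fitted as a numeric term beside genotype. It was called for 4 of the 42 members (edgeR, adjusted p below 0.05), or 9.52%, beside 9.8% of all genes, so the family as a whole moved with hair level about as often as other genes. Of the 4, 1 had a positive slope, beside 5.61% of all genes, and 3 a negative slope, beside 4.18%. No cluster member was among them.

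Trim59, a transmembrane member of the endoplasmic reticulum that is linked to proliferation, was higher where hair genes were high. It was at 20.5, 25.8 and 56.2 CPM in ATR mD/mD 1, 2 and 3 and at 24.2, 43.5 and 55.4 CPM in ATR WT 1, 2 and 3. The order of the 6 libraries was that of their hair levels, with ATR mD/mD 1 lowest and ATR mD/mD 3 highest. The slope was 0.21 (SE 0.0245) in log2 CPM per log2 CPM of hair level, with an adjusted p of 0.00571 (edgeR). It kept its call in every fit that left out 1 library except the one without ATR mD/mD 3 (adjusted p = 0.0761).

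Trim54, Trim63 and Trim72 went the other way. Trim63 (MuRF1) and its relative Trim54 are sarcomere proteins, Trim63 being the ligase of muscle atrophy, and Trim72 seals membrane breaks in muscle fibres. Trim54 was at 65.6, 69.4 and 27.3 CPM in ATR mD/mD 1, 2 and 3 and at 112, 32.3 and 20.5 CPM in ATR WT 1, 2 and 3. Trim63 was at 47.5, 62.8 and 20.2 CPM in ATR mD/mD and at 83.7, 34.7 and 21.7 CPM in ATR WT, and Trim72 was at 41.9, 54.2 and 20.4 CPM in ATR mD/mD and at 79.6, 35.9 and 25.8 CPM in ATR WT. In all 3 genes ATR WT 1 was the highest library, and ATR mD/mD 3, ATR WT 2 and ATR WT 3 were the lowest. The slopes were -0.29 (SE 0.0579), -0.26 (SE 0.0562) and -0.22 (SE 0.0483) for Trim54, Trim63 and Trim72, with adjusted p-values of 0.0295, 0.0383 and 0.0384 (edgeR). The third COS member, Trim55, was at 5.8, 7.16 and 1.49 CPM in ATR mD/mD and at 3.86, 3.06 and 2.39 CPM in ATR WT, with a slope of -0.23 (SE 0.0797) that did not pass (adjusted p = 0.128, edgeR).

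Skeletal muscle transcripts moved with these members. The mean of 11 measured muscle markers was 10.56, 10.57 and 8.94 log2 CPM in ATR mD/mD 1, 2 and 3 and 11.13, 9.72 and 9.06 in ATR WT 1, 2 and 3. Of the 11, 10 were called for hair level, all with negative slopes, beside 4.18% of all genes, and none for genotype. The part that muscle content had in the values of Trim54, Trim63, Trim72 and Trim55 was not tested. The number of Trim members called for hair level was 1 when ATR WT 1 or ATR WT 2 was left out (Trim59 each time), 2 when ATR WT 3 was, and 0 when ATR mD/mD 3 was. The count over all genes was lower in the same fits, at 605, 540, 789 and 180 genes, against 1419 with all libraries. When ATR mD/mD 2 was left out 4 members were called, with Trim7 among them and Trim54 not (adjusted p = 0.055, edgeR).

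**Figure D5:**
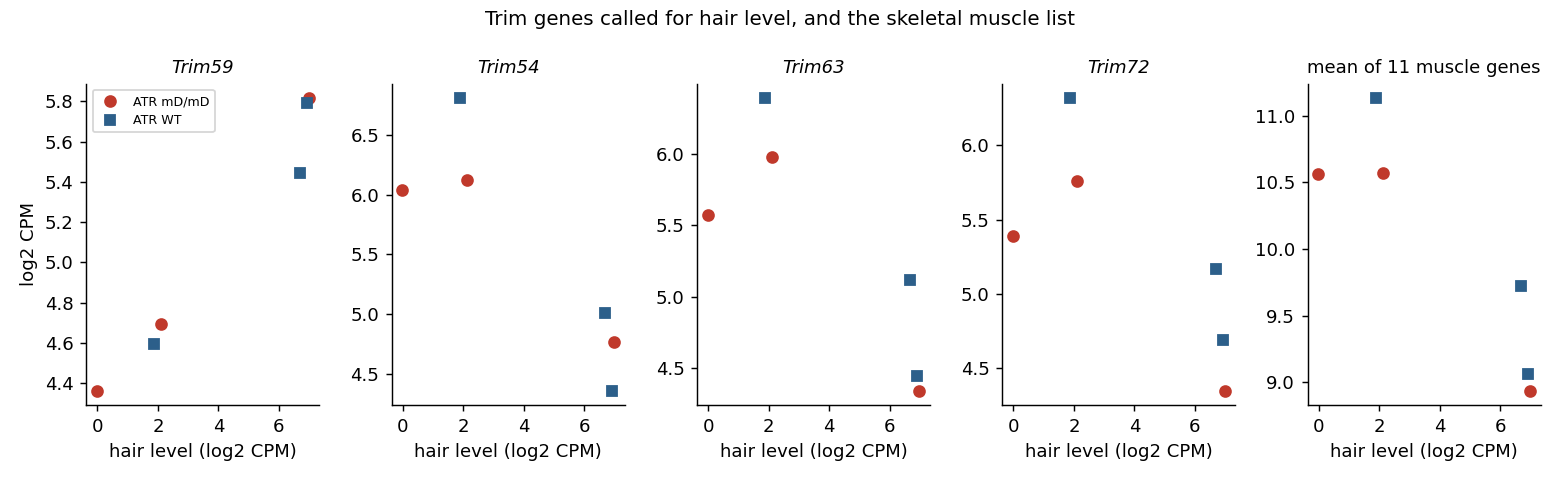
Log2 CPM of the 4 members called for hair level and the mean of 11 skeletal muscle genes, against the mean log2 CPM of 34 hair genes, each point 1 library. Trim59 is high in the 3 libraries with hair levels of 6.69 to 6.98, and Trim54, Trim63, Trim72 and the muscle mean are low in the same libraries.

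The interferon response genes and the genes of RNA and DNA sensing showed no call for genotype, beside 0.0483% of all genes (edgeR quasi-likelihood). Of 33 measured interferon response genes, 17 were lower and 16 higher, with a median log2 fold change of -0.04. Of the 33, 3 were lower in ATR mD/mD without overlap, beside 2.58% of all genes, and 0 were higher without overlap, beside 2.26%. None of the 33 passed (edgeR quasi-likelihood, DESeq2, limma-voom and the exact test), and 1 had an unadjusted p under 0.05, beside 1.66% of all genes. That was Gbp3, an interferon-induced GTPase named after its value was seen, with 15.04 ± 2.63 CPM in ATR mD/mD and 20.4 ± 1.41 CPM in ATR WT (SD, n = 3; log2 fold change -0.44, SE 0.173). Of 22 genes of RNA and DNA sensing, 12 were lower and 10 higher (median -0.02), none passed by any of the 4 tests and 0 had an unadjusted p under 0.05. In this list 1 gene was lower and 1 higher without overlap. The mean level of the interferon response genes was 4.09, 3.61 and 4.06 log2 CPM in ATR mD/mD 1, 2 and 3 and 4.08, 3.96 and 3.87 in ATR WT 1, 2 and 3. ATR mD/mD 2 was the lowest library.

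Genes under other names that belong to the wider family or share domains with it were alike. Of 16 measured, 7 were lower and 9 higher, with a median log2 fold change of 0.004. None passed by any of the 4 tests, and 0 had an unadjusted p under 0.05, beside 1.66% of all genes. Pml, the RING and B-box protein that builds nuclear bodies, was at 24.3 CPM in ATR mD/mD and 27.8 CPM in ATR WT (means of 3 libraries; log2 fold change -0.20, SE 0.123), with groups that did not overlap. Of the 16, 2 were called for hair level, beside 9.8% of all genes. They were Cmya5 and Fsd2, relatives expressed in muscle, with slopes of -0.34 and -0.31 (adjusted p = 0.0128 and 0.0115, edgeR), the direction of Trim54 and Trim63. These 3 genes were named after their values were seen.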

How the data were processed

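RNA from 6 mouse skin samples was selected with oligo dT and made into libraries with the TruSeq RNA v2 kit, which does not mark strand, per the labels' protocols. The submitters' processing notes name TopHat2 2.0.12, edgeR and build mm10. No source used here names the read counter, its annotation or any filter applied before deposit. The authors deposited whole-number read counts for each gene in each library, not normalized, per the file headers. Beside them the authors deposited their own comparison as log2 values (fold change and mean CPM) and p-values, raw and adjusted.

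Multiply aligned and ambiguous reads sit on 2 lines that name no gene, with 4.93% to 5.72% of a library's listed counts, and were left out. The lowest total of a gene was 171, and filterByExpr left all 14484 genes. TMM factors were 0.923 to 1.04. Tests used edgeR 4.0.16 (quasi-likelihood) in R 4.3.3, with Benjamini-Hochberg adjustment over all genes. The SE was derived from the log2 fold change and F, and 95% intervals use the degrees of freedom of the test. The hair level of a library was the mean log2 CPM of 34 genes. DESeq2 1.42.0, limma 3.58.1 (voom), edgeR's exact test, RLE scaling, other filters and fits without each library were tried. The tests were also run on simulated data, where some genotype and hair changes were missed and some hair calls were false. No pair of libraries in a group matched within sampling noise (chi-square per degree of freedom at least 55.5).

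Positions and exon lengths come from GENCODE M21, which holds all 42 symbols. The members and gene lists were chosen with earlier results of these data known. The rule named the cluster genes, the 8 other members with the smallest p, the 6 with the highest level per kilobase, up to 4 called for hair level in each direction, and Trim54, Trim55, Trim63 and Trim72. Trim3, Trim21, Trim24, Trim25, Trim33, Trim56, Trim67 and the flanking genes were named outside it, after their values were seen.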

Additional observations from a re-analysis of the deposited data

How the results depend on the processing

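The number of Trim members called for genotype was 1 under RLE scaling, without a filter, with a minimum of 1 CPM, with limma-voom and with the hair covariate. It was 3 with DESeq2 and 3 with edgeR's exact test, all lower, and 0 to 1 with 1 library left out. Whether the replicate numbers pair samples across the genotypes is not settled here. The correlation of deviations from the group means was 0.633, -0.509 and 0.573 for numbers 1, 2 and 3. Hair level also differed within each group, so these values cannot decide it. With the replicate block, 1 member and 6 genes in all were called. Trim34a and Trim30d reached the threshold with DESeq2 and the exact test only. The cause was not tested. Hair calls ran from 0 to 4 with 1 library left out, as calls over all genes ran from 180 to 1199 against 1419 with all libraries, and with hair level alone the calls of Trim63 (-0.23, adjusted p = 0.0567) and Trim72 (-0.18, adjusted p = 0.101, edgeR) were lost and Trim7 was called.

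Signs turned only in members that never passed for genotype. Trim54 was at 0.25 with the replicate block and 0.28 with limma-voom, Trim63 at 0.011 with limma-voom, and with the hair covariate Trim59 was at 0.13 and Trim55 at -0.037. With 1 library left out, log2 fold changes ran from -0.075 to 0.082 for Trim29, -0.11 to 0.21 for Trim28, -0.43 to 1.05 for Trim54, -0.60 to 0.35 for Trim72, -0.46 to 0.64 for Trim63 and -0.82 to 0.0055 for Trim59. Trim12a ran from -11.56 to -9.05, with adjusted p-values of 0.0289 to 0.0613 (edgeR). At 1 count over 3 libraries, its fitted fold change depends on the prior count. The 4 gene lists had 0 calls for genotype in every setting.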
